A study of Homo sapiens with 6 samples.

Results

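Of 11469 genes above background in macrophage-like THP-1 cells, 2858 (24.9%) had their level with the negative control mimic outside the range of the levels with 5 different miRNA mimics. In 1518 of them (13.2%) the gene was higher with all 5 mimics than with the control, and in 1340 (11.7%) it was lower with all 5. These 2858 genes were chosen by their measured values, so their differences are described and not tested. They come from 17687 named genes on the array, of which 4649 had the control outside the range of the 5 mimics. A filter on dim genes left out 1791 of those 4649.

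THP-1 is an established human leukaemia line of the monocyte lineage, and the labels of the series call the cells lymphocyte-like. The cells received 100 ng/ml PMA, a phorbol ester that turns them into macrophage-like cells, for 2 days. A mimic of miR-151a-3p, miR-146a-5p, let-7d-3p, miR-130a-3p or let-7e-5p, or the negative control mimic (mimic NC), was then added with lipofectamine RNAiMAX for 24 h. Affymetrix Clariom S expression arrays measured 1 culture for each, 6 arrays in all. The treatment text of the labels names a let-7a-5p mimic for every culture, so the groups follow the titles. The "2" in the title of the control is not explained.

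A microRNA is a short RNA that guides an Argonaute protein to messenger RNAs. Bases 2 to 8 of the miRNA, the seed, pair with sites that lie mostly in the untranslated region after the coding sequence, and the paired messenger is translated less and degraded sooner. A mimic is a synthetic duplex that delivers such a miRNA, and a negative control mimic is a duplex designed to have no known target. Besides its targets, a transfected duplex brings a lipid carrier, a load on Argonaute and a double-stranded RNA that macrophage sensors can meet, and the control shares these with the mimics.

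The mature sequences of 3 of the 5 miRNAs were found in RefSeq, and they are shown because the seeds decide which messengers each mimic can pair with. The seed is in capitals.
let-7d-3p: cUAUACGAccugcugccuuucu
let-7e-5p: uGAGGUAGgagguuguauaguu
miR-146a-5p: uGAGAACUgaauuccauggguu
They lie on the plus strand of GRCh38.p14 at chr9:94178895-94178916, chr19:51692793-51692814 and chr5:160485372-160485393, in the order shown. No 2 of these 3 share a seed. The seeds of let-7e-5p and miR-146a-5p share their first letters and then part, and let-7d-3p, which comes from the other arm of a let-7 hairpin, has another seed than the let-7 family proper. For miR-130a-3p and miR-151a-3p only the names are given.

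Values are RMA signals on a log2 scale, in which a step of 1 is a doubling. A gene was above background when its mean over the 6 arrays exceeded 5.39, the level that 95% of the signals of 348 olfactory receptor probe sets stayed under, a family that is mostly silent outside the nose. The median signal of an array was between 6.92 and 6.95, so the arrays were on a like scale. The label was checked on 11 macrophage markers, among them CD14, CD68, MSR1 and TYROBP. Their mean level was 13.05 to 13.16 with the mimics and 13.07 with mimic NC, and all 11 were above background by their mean over the arrays. MRC1 was close to background, at 5.05 to 5.68 with the mimics and 5.32 with mimic NC. A wider list of 26 macrophage and monocyte markers had 23 above background. Of 14 markers of undifferentiated myeloid cells 10 were above background too. Among them AZU1 was at 13.52 to 13.72 with the mimics and 13.73 with mimic NC, and MYB at 11.09 to 11.59 and 11.05. The check thus does not tell how far the cells had differentiated. Lists of T and NK cell, B cell, epithelial and fibroblast, and erythroid markers had mean levels of 4.92 to 6.03 with the mimics and 5.10 to 6.13 with mimic NC, at or near background.

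Each culture was a single array, so no difference has a replicate error. In bulk RNA from a culture, fewer cells that express a gene and less of its RNA per cell cannot be told apart. An exact permutation test of 1 array against 5 cannot give a one-sided p below 0.167. All 5 mimics were set against the same mimic NC array, and a deviation of that array alone moves all 5 differences the same way, so a change shared by the mimics and a deviation of the control cannot be told apart in these 6 arrays. Each mimic array was therefore taken in turn as the odd array and counted in the same way.

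Mimic NC was the array least often at an end. The let-7d-3p array lay outside the other 5 in 4322 genes (37.7%), the let-7e-5p array in 3318 (28.9%), the miR-146a-5p array in 3332 (29.1%), the miR-130a-3p array in 3784 (33.0%) and the miR-151a-3p array in 4526 (39.5%), against 2858 (24.9%) for mimic NC. The order depended on which arrays were in the set. With the let-7d-3p array left out, the remaining mimic arrays lay outside the others in 3970 (34.6%) to 5282 (46.1%) genes and mimic NC in 3998 (34.9%).

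The arrays differed in how far they leaned to one end. The let-7d-3p array was below the other 5 in 2601 genes (22.7%) and above them in 1721 (15%), and the let-7e-5p array was below in 1894 (16.5%) and above in 1424 (12.4%). The miR-151a-3p array was above the others in 2752 genes (24.0%) and below in 1774 (15.5%). The miR-130a-3p array was above in 2039 (17.8%) and below in 1745 (15.2%), and the miR-146a-5p array was above in 1768 (15.4%) and below in 1564 (13.6%). Mimic NC was below all 5 mimics in 13.2% and above them in 11.7%, a split of 53.1% to the side where the mimics were higher, which repeated quantile normalization moved to 49.8% and median centring to 47.8%. The larger side held 60.2% of the outside genes of let-7d-3p, 57.1% of let-7e-5p, 53.1% of miR-146a-5p, 53.9% of miR-130a-3p and 60.8% of miR-151a-3p, so mimic NC leaned as little as miR-146a-5p.

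**Figure D1:**
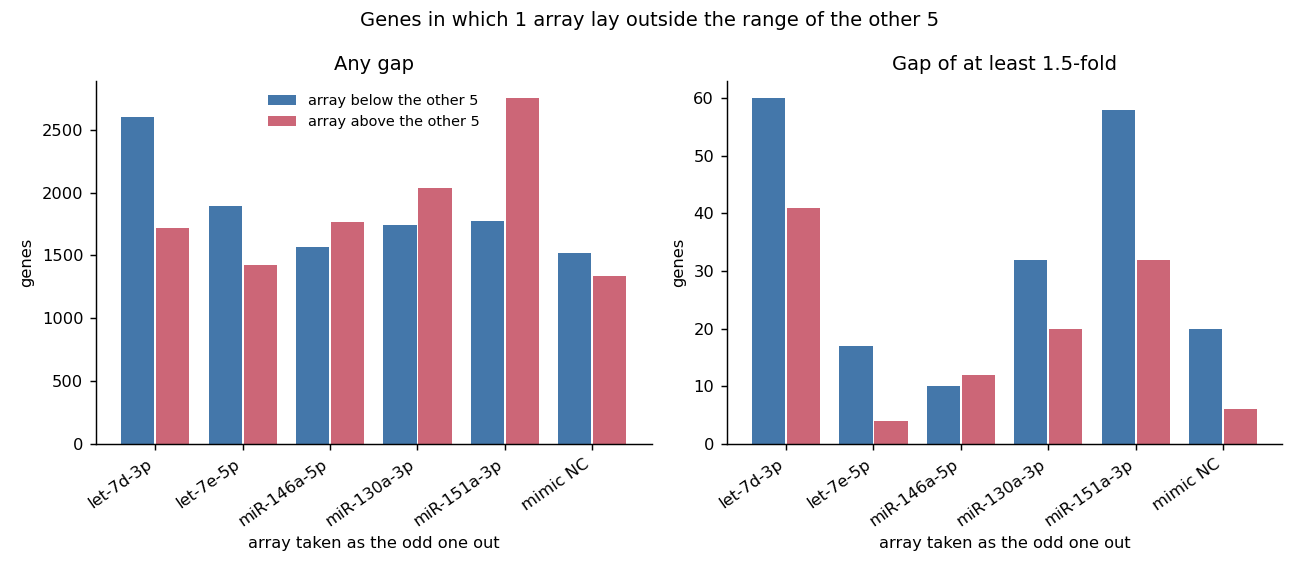
Number of genes (y axis) in which the array named on the x axis lay below (blue) or above (red) all of the other 5, at any gap (left) and at a gap of at least 1.5-fold (right). Mimic NC has 1518 and 1340 genes at any gap, its 2 bars being the lowest of their colour, and 20 and 6 genes at 1.5-fold.

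At a gap of at least 1.5-fold between the odd array and the nearest other array the counts were small. They were 101 genes (0.881%) for let-7d-3p, 21 (0.183%) for let-7e-5p, 22 (0.192%) for miR-146a-5p, 52 (0.453%) for miR-130a-3p and 90 (0.785%) for miR-151a-3p, against 26 (0.227%) for mimic NC. Mimic NC thus had rank 3 of 6 from the lowest here. Of its 26 genes 20 (0.174%) were higher with all 5 mimics and 6 (0.0523%) were lower, and 0 reached 2-fold. A level below background is only a bound, and with such levels raised to the background, a step chosen after seeing the data, the counts were 92, 20, 19, 47 and 77 genes in the same order and 24 for mimic NC (18 higher and 6 lower). Counted in this way the widest gap was 1.37 (log2) for the let-7d-3p array, 0.96 for let-7e-5p, 1.14 each for miR-146a-5p and miR-130a-3p, and 1.38 for miR-151a-3p, against 0.97 for mimic NC.

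Most of the 2858 genes stood close to the range of the mimics. The median gap to the nearest mimic was 0.09 among the genes higher with all 5 mimics and 0.08 among those lower, and 128 and 101 of them had a gap of 0.01, the smallest step of the deposited values. The range of the 5 mimics themselves was wider, with a median of 0.34 in the higher and 0.35 in the lower genes. Each mimic array stood apart from the other 5 by at least their range in 290 to 646 genes, and mimic NC in 239. At the 1.5-fold limit, BANF1 and TPST1 were just inside with a gap of 0.60 and TNKS and CYB5D1 just outside with 0.57, and among the lower genes PLEKHA6 was inside at -0.59 and SLC11A1 outside at -0.53.

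Mimic NC most often took a middle place. Over 9018 genes without tied values the let-7d-3p array was lowest (rank 1) in 23.6% and the miR-151a-3p array highest (rank 6) in 24.9%. Mimic NC held rank 3 or 4 in 19.5% and 19.8% of genes, rank 1 in 13.6% and rank 6 in 12%. The mean of the median absolute differences between an array and the other 5 was 0.170 to 0.190 for the mimics and 0.164 for mimic NC. Pairs of mimics were 1.5-fold apart in 477 to 1297 genes (median 919 over 10 pairs), and pairs of a mimic with mimic NC in 504 to 825 (median 673 over 5 pairs, which share the control).

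**Figure D2:**
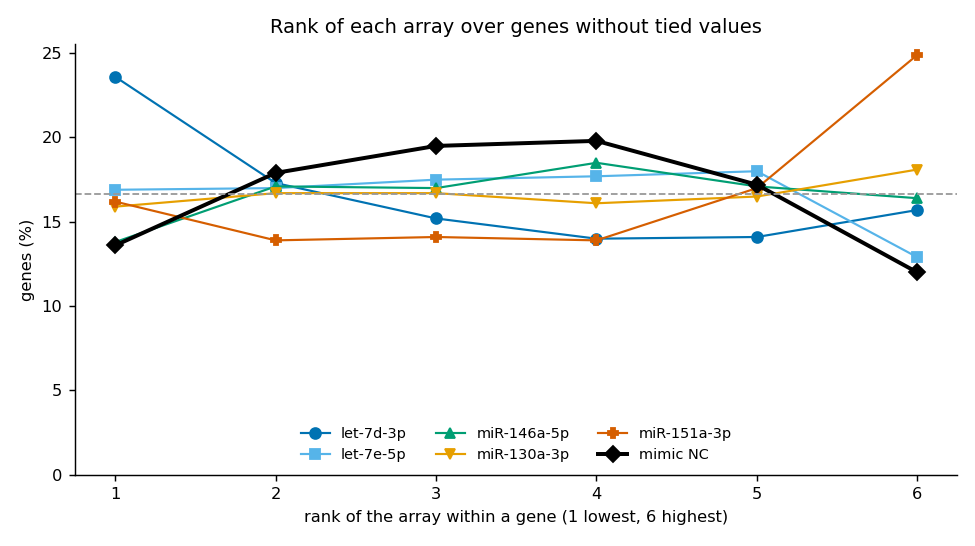
Share of the 9018 genes without ties (y axis, %) in which each array held a given rank from 1, lowest, to 6, highest (x axis), with the dashed line at equal shares of 16.7%. The let-7d-3p array has its highest share at rank 1 (23.6%) and miR-151a-3p at rank 6 (24.9%), while mimic NC (black diamonds) peaks at ranks 3 and 4 (19.5% and 19.8%).

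The largest gap belonged to RFK, which encodes riboflavin kinase, the enzyme that turns vitamin B2 into the cofactor FMN. Below, the values of the 5 mimics are always given in one order, with let-7d-3p first, then let-7e-5p, then miR-146a-5p, then miR-130a-3p and, last, miR-151a-3p. RFK was at 9.98, 10.35, 10.21, 10.57 and 10.18 with the mimics and at 9.01 with mimic NC. The nearest mimic was 1.96-fold and the median mimic 2.30-fold above the control, a distance larger than the range of 0.59 among the mimics themselves. CENPX, a small protein of the centromere and of DNA crosslink repair, had a median difference of 1.09 against 1.2 for RFK but spread more, at 7.27, 7.74, 7.95, 7.97 and 8.40 with the mimics and 6.86 with mimic NC.

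CALU, calumenin, a calcium-binding protein of the endoplasmic reticulum, was at 15.05, 15.17, 14.99, 15.20 and 15.17 with the mimics and 14.27 with mimic NC, where the mimics span only 0.21. PDIA4, a disulfide isomerase of the endoplasmic reticulum, was at 12.25, 12.35, 12.41, 12.63 and 12.44 with the mimics and 11.55 with mimic NC. In both, every mimic was more than 1.5-fold above the control. SMAP1, which acts on the small GTPase ARF6 in endocytosis, was at 11.19, 11.15, 11.04, 11.13 and 11.26 with the mimics and 10.26 with mimic NC. TPST1, the Golgi enzyme that sulfates tyrosines of secreted proteins, was at 8.10, 8.02, 8.01, 8.13 and 8.07 with the mimics and 7.41 with mimic NC.

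PIP4K2A, a kinase of phosphoinositides, was at 14.06, 13.93, 14.04, 13.97 and 14.09 with the mimics and 13.23 with mimic NC. SLC36A1, which carries amino acids out of lysosomes, was at 11.46, 11.77, 11.82, 11.64 and 11.89 with the mimics and 10.77 with mimic NC, a median difference of 1.0. PTPMT1, a mitochondrial phosphatase needed to make cardiolipin, was at 10.81, 11.01, 11.11, 11.15 and 11.12 with the mimics and 10.14 with mimic NC. All 3 groups of values were separate from the control by 0.67 to 0.70. SGMS2, a sphingomyelin synthase, was at 6.14, 5.87, 5.88, 5.92 and 5.81 with the mimics and below background (5.03) with mimic NC, so its nearest mimic was at least 1.33-fold higher, counted from the background level.

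Both SGMS2 and NANOS1 are among the 20 genes by their deposited values only. NANOS1, an RNA-binding repressor of translation, was at 5.97 to 6.35 with the mimics and 5.11 with mimic NC, below background, which gives at least 1.49-fold. PHKA1, a subunit of phosphorylase kinase, was at 6.25 to 6.78 with the mimics and 5.52 with mimic NC. The matrix proteins ADAMTSL5 and DMP1 were at 7.62 to 7.76 and 7.70 to 8.10 with the mimics and at 6.91 and 7.04 with mimic NC. Of these, ADAMTSL5 had the tightest mimics, with a range of 0.14.

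NAP1L5, a nucleosome assembly protein, was at 6.16 to 6.61 with the mimics and 5.48 with mimic NC, and THYN1 at 7.74 to 8.29 with the mimics and 7.08 with mimic NC. ZSWIM4 was at 8.16 to 8.33 with the mimics and 7.48 with mimic NC. RIOK1, a kinase that matures the small ribosomal subunit, was at 8.87 to 9.37 with the mimics and 8.24 with mimic NC. BANF1, which tethers chromatin to the nuclear envelope, was at 13.81 to 14.17 with the mimics and 13.21 with mimic NC, and COL26A1, a collagen, at 6.28 to 6.89 with the mimics and 5.68 with mimic NC. These complete the 20 genes together with 1 that is not named here.

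The 6 genes lower by at least 1.5-fold with all 5 mimics were dim. LY6G6C, of a family of small surface proteins, was at 5.28, 5.42, 5.20, 5.38 and 5.09 with the mimics, around background, and 6.25 with mimic NC. GRM4, a glutamate receptor of neurons, was at 5.68, 5.39, 5.56, 5.72 and 5.62 with the mimics and 6.43 with mimic NC, and LRGUK, needed for sperm formation in the mouse, was at 5.71, 5.95, 5.71, 5.87 and 6.0 with the mimics and 6.77 with mimic NC. Of the 6 genes, 4 were above background on all 6 arrays. TEF, a transcription factor with a daily rhythm, was at 5.79 to 6.04 with the mimics and 6.65 with mimic NC, and OXLD1 at 6.36 to 6.65 with the mimics and 7.33 with mimic NC. PLEKHA6 was at 7.34, 7.39, 6.91, 7.05 and 6.72 with the mimics and 7.98 with mimic NC.

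The lower genes with the next widest gaps were just short of 1.5-fold. SLC11A1, the metal transporter of the phagosome membrane, was at 8.42, 8.58, 8.58, 8.01 and 8.47 with the mimics and 9.11 with mimic NC. HAVCR1, a receptor for phosphatidylserine on dying cells, was at 8.03, 8.10, 8.31, 8.31 and 7.70 with the mimics and 8.82 with mimic NC. In both genes the mimics lay 0.51 or more below the control and miR-130a-3p or miR-151a-3p was the farthest. The tight junction protein OCLN was at 6.77 to 7.02 with the mimics and 7.51 with mimic NC, and DACT1, an inhibitor of Wnt signalling, at 5.84 to 6.49 with the mimics and 6.96 with mimic NC. BUD13, a splicing factor, AAMDC, MOB3B and the transcription factors CREB5 and TSHZ1 had gaps of -0.47 to -0.5.

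**Figure D3:**
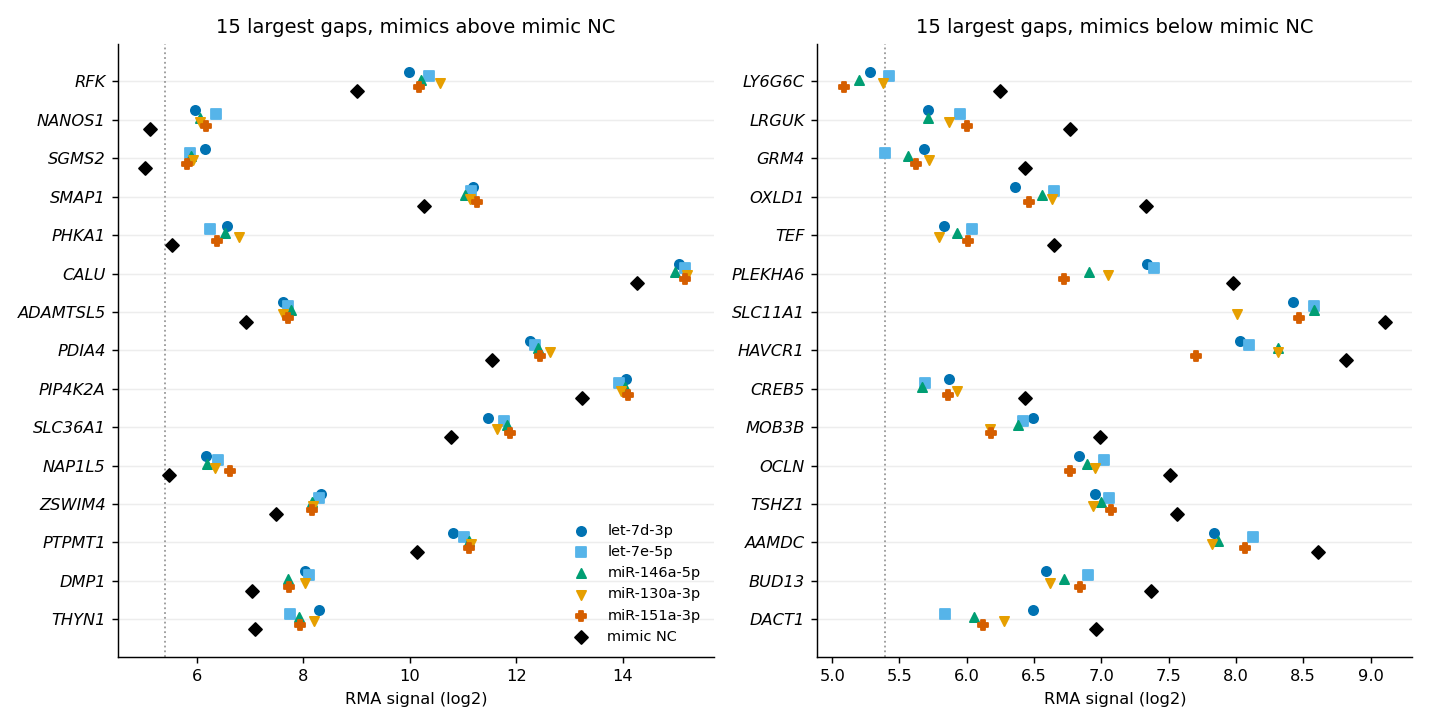
RMA signal (x axis, log2) on each of the 6 arrays for the 15 genes with the widest gap above mimic NC (left) and the 15 with the widest gap below it (right), with the dotted line at the background of 5.39. In every gene the black diamond of mimic NC stands apart from the 5 coloured mimics, by 0.97 in RFK and by 0.47 in DACT1.

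For scale, the mimic arrays had leaders of their own that stood about as far or farther from the other 5. SLC39A6, a zinc transporter, was at 9.64 with let-7d-3p and 11.01 to 11.21 on the others, and AP3S1, a vesicle adaptor subunit, was at 11.39 with miR-151a-3p and 12.77 to 12.92 on the others. PDZD11 was at 9.97 with miR-130a-3p against 11.11 to 11.25, GALNT3 at 7.11 with miR-146a-5p against 5.17 to 5.97, and FAM220A at 6.70 with let-7e-5p against 7.66 to 8.17. With levels below background raised to it, the leading gap of mimic NC (0.97) was within the span of those of the mimics, 0.96 to 1.38. By deposited values the let-7d-3p array had a wider one, 1.55 in SHC4, whose level there was below background (4.08).

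The gene lists below are given beside the share over all genes above background, 13.2% higher and 11.7% lower with all 5 mimics. They are descriptions of the same contrast that chose the genes, and members of a pathway are not independent. Of 28 genes of the unfolded protein and integrated stress responses 10 (35.7%) were higher with all 5 mimics and 1 (3.57%) lower. These responses raise the folding capacity of the endoplasmic reticulum and slow translation when unfolded protein builds up, though not every gene of the list does either. The median difference of the 28 genes from mimic NC was 0.14, against 0.00 over all genes. The count stayed 10 under the 3 rescalings that can change the order of the arrays. The filters could not remove any of the 10, whose lowest level was 7.61 (DDIT4 with mimic NC). Each mimic array taken as the odd array was below the others in 0 to 6 of the same 28, and above them in 3 to 8.

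After PDIA4, the widest gaps of the list were those of DNAJB9, VLDLR and DNAJC3. DNAJB9, a co-chaperone that restrains the sensor IRE1, was at 10.61, 10.59, 10.58, 10.73 and 10.85 with the mimics and 10.09 with mimic NC. DNAJC3, which inhibits the kinase PERK, was at 12.63, 12.81, 12.76, 12.85 and 12.61 with the mimics and 12.15 with mimic NC. VLDLR, a lipoprotein receptor that the stress factor ATF4 can induce, was at 9.26, 8.91, 8.63, 8.71 and 9.42 with the mimics and 8.16 with mimic NC. In these 3 the lowest mimic was 0.46 to 0.49 above the control. SEL1L, a scaffold for degrading misfolded protein, had a gap of 0.19, while the chaperones HSPA5 and CALR had gaps of only 0.07 and 0.04.

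The factors that steer the response were split. DDIT3, the factor CHOP, was at 8.46, 8.73, 8.59, 8.42 and 8.89 with the mimics and 8.31 with mimic NC, and DDIT4, an inhibitor of mTOR, was at 7.76 to 8.19 with the mimics and 7.61 with mimic NC. ATF6, a sensor that is cut to become a factor, was at 12.74 to 12.94 with the mimics and 12.67 with mimic NC. ATF4, the factor of the integrated stress response, was instead lower with all 5, at 12.48 to 12.59 with the mimics against 12.67 with mimic NC. XBP1 was inside the range, at 11.02 to 11.36 with the mimics and 11.30 with mimic NC. In all, 17 of the 28 genes were inside it, among them HERPUD1, EDEM1, PDIA6, MANF, SDF2L1, TRIB3 and ASNS. Only 4 of the 28 were higher by at least 1.2-fold with all 5 mimics.

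**Figure D4:**
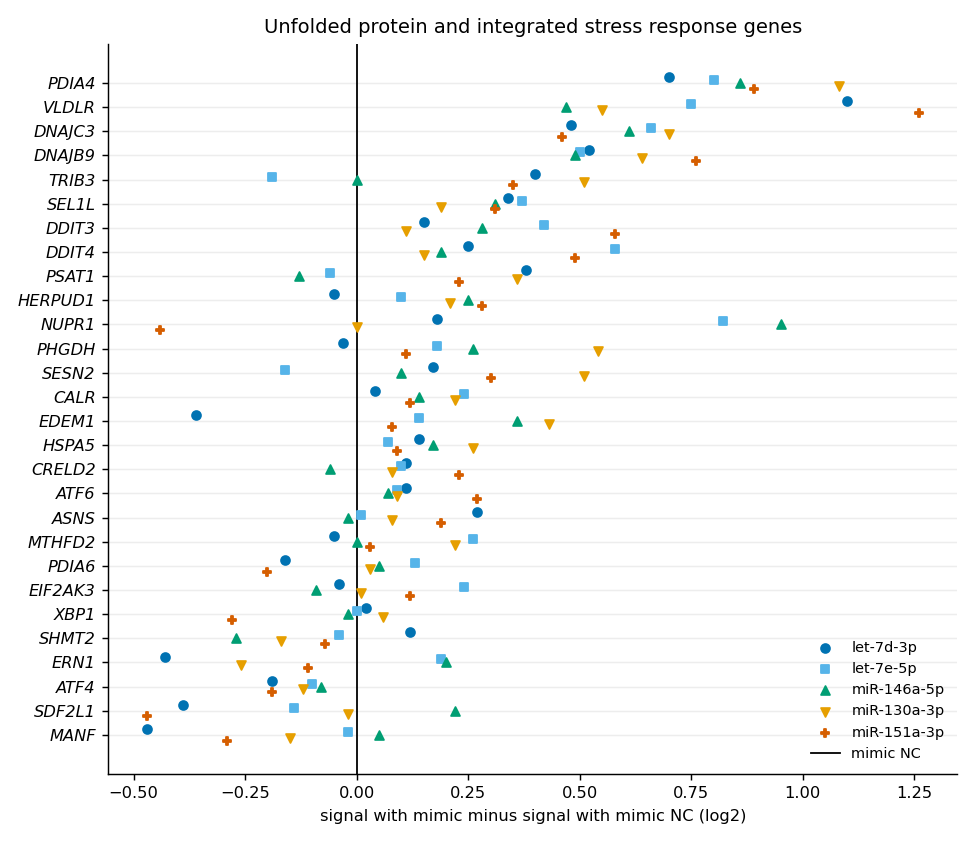
Signal with each mimic minus the signal with mimic NC (x axis, log2) for the 28 stress response genes above background, ordered by the median of the mimics, with the vertical line at mimic NC. The 5 points of PDIA4, VLDLR, DNAJC3 and DNAJB9 lie at 0.46 or more, those of 17 genes lie on both sides of or on the line, and those of ATF4 lie below it.

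Promoters of this list were searched for the endoplasmic reticulum stress element, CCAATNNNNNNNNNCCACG, on both strands from 250 bases before to 50 after the start of each gene in RefSeq. The element was in 4 of 26 promoters of the list (15.4%). It was in 22 of 27305 in the whole table (0.0806%) and in 13 of 9510 for genes above background (0.137%). The share in the list follows from which genes are on it and not from any difference between the arrays. The sites are shown because 2 of the 4 genes were higher with all 5 mimics (HSPA5 and CALR) and 2 were inside the range (XBP1 and CRELD2). The paired boxes of the element are in capitals.
HSPA5: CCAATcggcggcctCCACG
CALR: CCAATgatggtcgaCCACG
XBP1: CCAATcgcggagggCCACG
CRELD2: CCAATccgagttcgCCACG
They read on the minus strand of GRCh38.p14 at chr9:125241391-125241409, chr19:12938384-12938402, chr22:28800603-28800621 and chr22:49918554-49918572, in the order shown. Among the 1257 genes higher with all 5 mimics that had a promoter in the table the element was in 3 (0.239%), and among 1093 lower in 1 (0.0915%). A shorter element, TGACGTG, was in 0 of the 26 promoters and in 2.00% of all. The promoters of the genes with the widest gaps, PDIA4, DNAJB9, VLDLR and DNAJC3, held neither string in this window.

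Of 19 heat shock and chaperone genes, which include the mitochondrial chaperonin and the heat shock factor HSF1, 3 (15.8%) were higher with all 5 and 1 (5.26%) lower, and after removal of a lowess trend 5 were higher. The mimic arrays were each below the other 5 in 0 to 5 of the 19 and above them in 1 to 7. DNAJB1 was at 12.09, 11.84, 11.77, 11.96 and 11.75 with the mimics and 11.52 with mimic NC, and HSPA1A, the inducible HSP70, at 10.18 to 10.34 with the mimics and 9.97 with mimic NC. Both are classic genes of the heat shock response. HSP90AA1 had a gap of 0.10 and HSPA4 was lower by 0.04.

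The proteasome degrades proteins tagged with ubiquitin. Of 28 proteasome subunits 10 (35.7%) were higher with all 5 mimics and 2 (7.14%) lower, though the median difference was only 0.05 and the count of 10 ran between 8 and 14 over the filters and rescalings. PSMA4, of the core particle, was at 13.11, 13.58, 13.45, 13.29 and 13.19 with the mimics and 12.85 with mimic NC, and PSMC3, an ATPase of the cap, at 11.26, 11.63, 11.46, 11.62 and 11.33 with the mimics and 11.11 with mimic NC. PSMB1 and PSMC4 had gaps of 0.14 and 0.13, and the other 6 had gaps of 0.09 or less. The let-7d-3p array was below the other 5 in 9 of the 28 and the let-7e-5p array above them in 10.

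Of 28 autophagy genes 8 (28.6%) were higher and 2 (7.14%) lower with all 5. ATG4A, a protease that processes the ATG8 proteins of the autophagosome, was at 8.43, 8.33, 8.62, 8.56 and 8.65 with the mimics and 7.99 with mimic NC. ATG12, a ubiquitin-like protein of the conjugation system, was at 10.92 to 11.34 with the mimics and 10.74 with mimic NC, and TAX1BP1, a cargo receptor, at 12.43 to 12.55 with the mimics and 12.26 with mimic NC. The list as a whole was close to the control, with a median of 0.04, and GABARAPL1 and ATG9A were the lower members. The miR-130a-3p array was below the other 5 in 7 of the 28, and the miR-151a-3p array was above them in 10. Of 16 tRNA synthetases 4 (25.0%) were higher, led by GARS1 (13.72 to 14.01 with the mimics and 13.59 with mimic NC) and AARS1, and 0 lower, while let-7d-3p was above the other 5 in 8 of the 16.

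Among 23 NF-kB inflammatory genes 6 (26.1%) were higher with all 5 mimics and 0 lower. NF-kB is the factor that switches on inflammatory genes in macrophages, and 3 of the 6 encode its subunits or an inhibitor. NFKBIE, an inhibitor of the factor, was at 11.23, 11.13, 11.10, 10.88 and 11.09 with the mimics and 10.77 with mimic NC. TNFAIP2 was at 7.97 to 8.10 with the mimics and 7.83 with mimic NC. The others had small gaps and wide spread among the mimics. TRAF1, an adaptor of tumour necrosis factor receptors, was at 8.78, 9.68, 9.26, 9.10 and 8.85 with the mimics and 8.71 with mimic NC, and RELB, a subunit, at 8.83, 9.26, 8.94, 8.49 and 8.80 with the mimics and 8.44 with mimic NC. PTX3, a soluble pattern receptor, and the subunit gene NFKB1 had gaps of 0.07 and 0.03. The let-7e-5p array was the highest of the 6 in 8 of the 23 genes. The miR-130a-3p array was below the other 5 in 6 of the 23, as many as mimic NC, and the miR-151a-3p array in 5.

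In the TGF-beta and SMAD list 5 of 26 (19.2%) were higher and 1 (3.85%) lower. SMAD1, a transducer of bone morphogenetic protein signals, was at 7.52, 7.18, 7.37, 7.37 and 7.26 with the mimics and 6.86 with mimic NC. The corepressors SKI and SKIL, which restrain SMAD proteins, were at 5.99 to 6.28 and 10.29 to 10.58 with the mimics and at 5.73 and 10.05 with mimic NC. The list median was -0.02, so the named members were not typical of it. Let-7e-5p and miR-146a-5p were also each below the other 5 in 5 of the 26. Of 19 cholesterol genes 5 (26.3%) were higher, with HSD17B7 at 10.49 to 10.78 with the mimics and 10.21 with mimic NC, and 2 (10.5%) lower. The let-7e-5p array was below the other 5 in 6 of these 19, more than mimic NC.

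Cell cycle genes were inside the range about as often as other genes or somewhat more, in 23 of 30 for G2 and M phase (76.7%) and 22 of 26 for G1 and S phase (84.6%), against 75.1% of all genes above background. Of 30 genes of G2 and M phase 6 (20%) were higher with all 5 and 1 (3.33%) lower, and of 26 genes of G1 and S phase 3 (11.5%) were higher and 1 (3.85%) lower. TOP2A, which untangles chromosomes, was at 11.33, 11.53, 11.29, 11.86 and 11.37 with the mimics and 11.06 with mimic NC. The miR-130a-3p array was the highest of the 6 in 17 of the 30 G2 and M genes, TOP2A among them, and the let-7d-3p array was the lowest in 8. Of the 3 D-type cyclins, which drive entry into S phase, 1 was higher, 1 lower and 1 inside the range. CCND3 was at 13.50, 13.54, 13.81, 13.14 and 13.19 with the mimics and 12.75 with mimic NC, and CCND1 at 14.27, 14.36, 14.33, 14.41 and 14.12 with the mimics and 14.59 with mimic NC. CCND2 was at 7.13, 6.84, 6.38, 6.55 and 5.96 with the mimics and 7.12 with mimic NC.

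Of 20 genes of lipid efflux and storage 6 (30.0%) were lower and 0 higher with all 5 mimics. PPARG, the nuclear receptor that drives lipid uptake and storage in macrophages, was at 12.10, 11.93, 11.86, 11.91 and 11.84 with the mimics and 12.30 with mimic NC. APOC1, an apolipoprotein of macrophages, was at 12.14 to 12.54 with the mimics and 12.67 with mimic NC, and PLIN3, a lipid droplet coat protein, at 10.92 to 11.17 with the mimics and 11.26 with mimic NC. The other 3, FABP5, DGAT2 and the oxysterol receptor NR1H3, were lower by gaps of 0.02 to 0.04. The miR-151a-3p array was below the other 5 in 7 of the 20, and the mimic arrays were each above them in 2 to 4.

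Of 23 immediate early genes 4 (17.4%) were lower and 2 (8.70%) higher with all 5 mimics. The miR-146a-5p array was above the other 5 in 7 of the 23, the let-7e-5p array in 4 and the miR-130a-3p array below them in 7. KLF4, a factor of monocyte differentiation, was at 8.18, 8.22, 8.10, 7.98 and 8.10 with the mimics and 8.69 with mimic NC, and EGR1 was at 10.48, 10.59, 10.53, 10.53 and 10.32 with the mimics and 10.90 with mimic NC. These have the widest gaps of the list, -0.47 and -0.31, with mimics close together. The MAP kinase phosphatases DUSP5 and DUSP1 were lower by gaps of 0.10 and 0.06, and MCL1 and KLF10 were the 2 higher members, which became 4 after quantile normalization was repeated or a lowess trend removed. Of 26 matrix and adhesion genes 5 (19.2%) were lower and 1 (3.85%) higher with all 5, and the list median was -0.005. THBS1, thrombospondin, was at 10.10 to 10.77 with the mimics and 10.97 with mimic NC. FN1, fibronectin, was at 8.54 to 9.27 with the mimics and 9.36 with mimic NC. The mimic arrays were each above the other 5 in 1 to 7 of these 26.

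The reported targets of the transfected miRNAs were examined because each mimic pairs with its own. Of 21 reported let-7 targets 6 (28.6%) were lower and 1 (4.76%) higher with all 5 mimics. ARID3B was at 5.20, 5.54, 5.39, 5.43 and 5.28 with the mimics and 5.82 with mimic NC. With let-7d-3p and miR-151a-3p it was below the background of 5.39, so its level there is only a bound. FAS and HRAS were lower by gaps of 0.05 and 0.03. HMGA1, a chromatin protein, was at 15.40 to 15.63 with the mimics and 15.72 with mimic NC. That these 6 were below the control with every mimic, and not only with let-7e-5p, follows from the rule that chose them. The let-7e-5p array was below all of the other 5, mimic NC included, in 11 of the 21. The mimic arrays were each above the other 5 in 0 to 5 of the 21, against 6 for mimic NC.

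Of 17 reported miR-130a targets 3 (17.6%) were lower (KLF4, PPARG and TSC1) and 1 (5.88%) higher with all 5. The higher one, MET, the receptor of hepatocyte growth factor, was at 6.20, 6.60, 6.55, 5.77 and 6.62 with the mimics and 5.54 with mimic NC. Its lowest mimic value was that of miR-130a-3p itself. KLF4 and PPARG were also counted in the immediate early and lipid lists above. The miR-130a-3p array was below all of the other 5 in 9 of the 17. The mimic arrays were each above the other 5 in 1 to 4 of the 17, against 3 for mimic NC. Of 13 reported miR-146a targets SIAH2, a ubiquitin ligase, was lower, and RELB was higher. SIAH2 was at 11.37, 11.39, 11.03, 11.49 and 11.38 with the mimics and 11.63 with mimic NC. The miR-146a-5p array was below all of the other 5 in 8 of the 13. Among 24 genes that process or act with miRNAs, CNOT7 and AGO3 (8.33%) were higher, by gaps of 0.12 and 0.03, and EDC4, of the decapping complex, was lower by 0.14 (4.17%).

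The interferon response, by contrast, put mimic NC in the middle of the mimics. Of 57 interferon-stimulated genes 0 had mimic NC outside the range of the mimics in either direction, against 13.2% and 11.7% of all genes, and after repeated quantile normalization 1 was lower with all 5. With 1 mimic left out, 0 to 6 were lower with the remaining 4 and 0 were higher. The let-7d-3p array was below the other 5 in 47 of the 57 and the miR-146a-5p array above them in 52. The remaining mimic arrays were also mostly inside. The let-7e-5p array was below the others in 0 and above in 3, and miR-130a-3p and miR-151a-3p were each below in 4 and above in 0. A place inside the range was thus not particular to mimic NC. IFIT2, an antiviral protein, was at 11.34, 13.24, 13.47, 11.59 and 11.70 with the mimics and 12.14 with mimic NC, and the chemokine CXCL10 at 13.03, 15.54, 15.42, 13.06 and 13.37 with the mimics and 13.59 with mimic NC. The control thus lay below let-7e-5p and miR-146a-5p and above the other 3 in both genes. Of 16 MHC class I presentation genes TAPBP alone (6.25%) was lower with all 5, and 0 were higher.

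Large families were on both sides of the overall shares. Of 55 cytosolic ribosomal protein genes 3 (5.45%) were higher and 3 lower with all 5, and of 74 mitochondrial ribosomal protein genes 11 (14.9%) were higher and 11 lower. Of 70 nuclear genes of the respiratory chain 12 (17.1%) were lower and 4 (5.71%) higher, each by a gap of 0.13 or less, with NDUFB9 at 13.43 to 13.60 with the mimics and 13.73 with mimic NC. The miR-146a-5p and miR-151a-3p arrays were each above the other 5 in 14 of these 70 and the let-7d-3p array in 13, more than the 12 of mimic NC. The zinc finger genes were lower in 67 of 393 (17%) and higher in 40 (10.2%). Of 202 solute carriers 28 (13.9%) were lower and 20 (9.90%) higher. The mimic arrays were each above the other 5 in 48 to 82 of the zinc finger genes and in 16 to 58 of the solute carriers. Of 23 macrophage and monocyte markers ITGAM and ITGAX (8.70%) were higher and CSF1R, MMP9, CD4 and SIGLEC1 (17.4%) lower, all by gaps of 0.09 or less, while the mimic arrays were each above the other 5 in 1 to 7 of them.

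**Figure D5:**
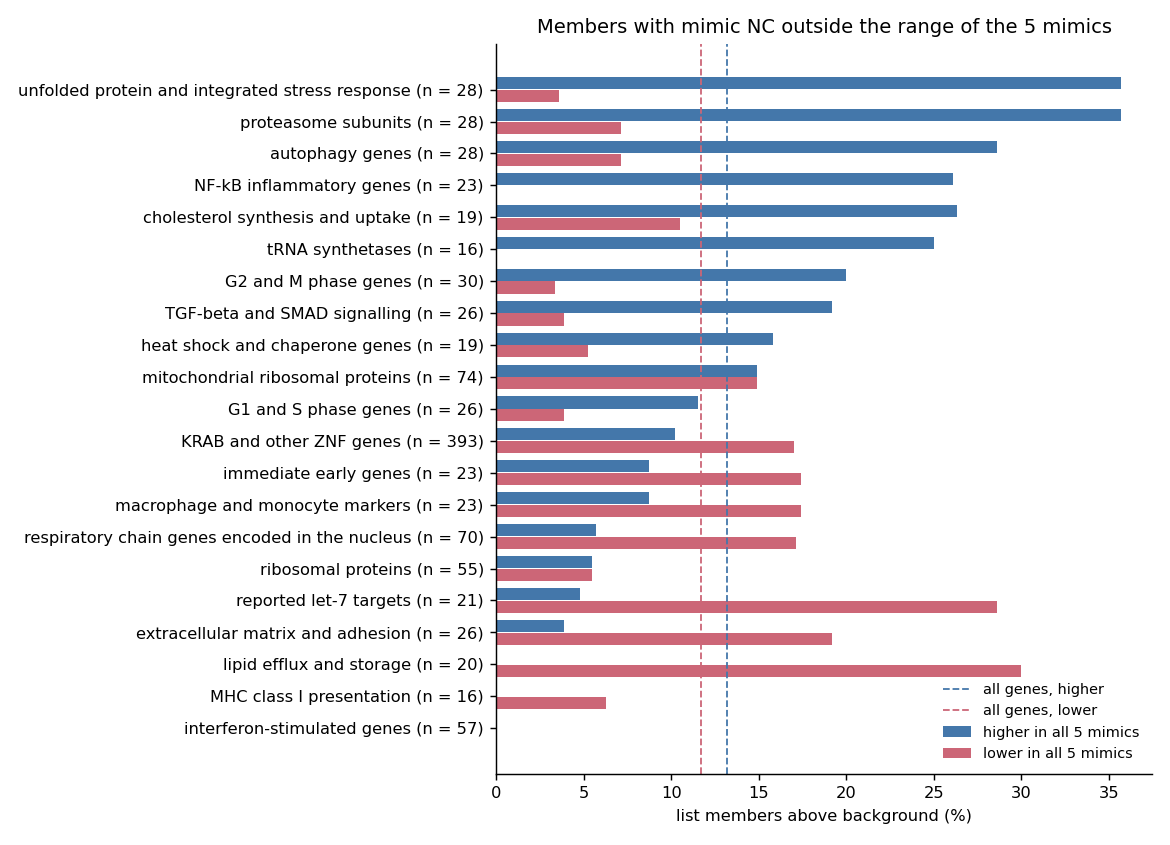
Share of the members above background (x axis, %) that were higher (blue) or lower (red) with all 5 mimics than with mimic NC, for 21 lists, with dashed lines at the shares over all genes (13.2% and 11.7%). Stress response and proteasome genes reach 35.7% higher, lipid genes 30.0% lower, and interferon-stimulated genes have no bar.

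The 2858 genes shared few features beyond the rule. The median signal was 9.17 in the genes higher with all 5 mimics and 9.16 in those lower, against 9.58 in the genes inside the range, and the 6 genes lower by 1.5-fold had a median of 6.02. Over 4 classes of signal, mimic NC was below the mimics in 11.7% to 14.6% of genes and above them in 10.7% to 14.8%, with the lowest share of each in the brightest class. By chromosome the share higher with all 5 ran between 10.4% on chromosome 14 and 20.4% on chromosome 13, where 41 of 201 genes were higher. Promoters had a median GC content of 66.0% in the higher and 64.3% in the lower genes, against 64.7% inside the range.

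No single mimic set the edge of the range. Among the genes higher with all 5, the mimic nearest to the control was let-7d-3p in 26.9%, miR-146a-5p in 22.4%, let-7e-5p in 20.7%, miR-130a-3p in 15.2% and miR-151a-3p in 14.8%. Among those lower with all 5 the nearest was let-7d-3p in 24.0% and miR-151a-3p in 23.8%. The farthest mimic in the higher genes was miR-151a-3p in 26.7% and miR-130a-3p in 25.8%.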

How the data were processed

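THP-1 RNA from 6 cultures was measured on Clariom S arrays, 1 array per mimic. The authors deposited log2 signals per probe set, rounded to 2 decimals, which the submitters' processing notes give as RMA in Transcriptome Analysis Console 4.0. RMA evens out differences between arrays that affect all genes. How it was set and which arrays it took together is not given in the sources used here, nor is any order of the cultures, so batch and mimic cannot be told apart. The labels give Trizol for the RNA and the methods the RNeasy kit. Of 21448 probe sets 17709 carried 1 symbol. They gave 17687 genes, 20 of them averaged over several probe sets. All were matched to RefSeq (GRCh38.p14).

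A gene counted where the odd array was strictly above or below the other 5, with ties not counted. The gap is the nearest mimic minus mimic NC. No model or test per gene was possible with 1 array per group, and the number of arrays limits the precision. Named were the 15 widest gaps in each direction, up to 4 members of each list, the leaders of the other arrays and a few genes chosen by name. Further list members were added after their values were seen. The members and the 45 lists were chosen with earlier results of these data known. Python 3.11.15, numpy 2.4.6, pandas 2.3.3 and statsmodels 0.14.6 were used. The counting was tested on simulated data with planted shifts wider than any gap of mimic NC. That checks the code and does not bear on gaps of the size found here. Alternatives were other filters, a lowess trend taken out (span 0.3), centring on array medians, quantile normalization repeated, ties counted, all probe sets, a pseudocount of 32, each mimic left out and, chosen after seeing the data, levels below background raised to it.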

Additional observations from a re-analysis of the deposited data

How the results depend on the processing

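No paired analysis was possible because there was 1 culture per mimic. Without a filter on dim genes 2350 genes were higher and 2299 lower with all 5 mimics. At 1.5-fold the counts of 20 higher and 6 lower became 191 and 108 at a threshold of 1.2-fold and 0 and 0 at 2-fold, and 11 and 0 with a pseudocount of 32. The lower count was 41 without a filter, 11 with a gene above background on at least 1 array and 1 with background at the 99th percentile, since the 6 genes are dim. With 1 mimic left out a count can only stay or grow: 1804 to 2180 higher, 1596 to 1914 lower, 24 to 28 higher by 1.5-fold and 6 to 14 lower by 1.5-fold, the last being 14 without let-7d-3p and 10 without miR-151a-3p.

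Mimic NC had the fewest genes outside the other arrays (rank 1 of 6) under every alternative that kept all 6 arrays and, with 1 mimic left out, ranked 1 to 2, with rank 2 only without let-7d-3p. By 1.5-fold its rank of 3 became 2 with all probe sets, with background at the 99th percentile or with a gene above background on at least 1 array, and 1 with a pseudocount of 32. With 1 mimic left out it was 1 to 3. Under the 3 rescalings that could turn them, 153 gaps of 51 named genes, most of them named for wide gaps, stayed on their side. A mimic left out, a pseudocount or the median of the mimics cannot turn a gap. Levels below background raised to it gave 1470 higher and 1340 lower genes. Of 300 list medians 21 changed sign. In 16 of them the median was under 0.05 in size, and the other 5 had a mimic left out. Only interferon-stimulated and MHC class I medians moved by 0.1 or more, 4 in all, each with a mimic left out. Of 600 list counts 50 moved by over 1.5 times, 37 of them with a mimic left out. The cause was not tested.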
